A study of Homo sapiens with 12 samples.

Results

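The genes examined here were 48 genes of DNA replication licensing and of the replication fork, among the 43876 genes of the deposited expression table. They were chosen by name for their roles, and each symbol matched 1 Ensembl identifier in the table. Of the 48 genes, 47 reached an FPKM of 1 in 3 or more libraries and were tested with the 18574 genes that passed this filter. FPKM is the number of sequenced fragments of a gene per kilobase of its length, scaled to the total of the library. The remaining gene, RNASEH2A, the catalytic subunit of the enzyme that cuts RNA paired to DNA, lay between 0.408 and 0.861 FPKM and was not tested.

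The RNA came from MV4-11, a line of human acute myeloid leukemia cells with an internal tandem duplication of FLT3. Its genotype is listed as wild-type in the sample labels. The cells were treated for 24 h with DMSO, with 20 nM mitoxantrone, a topoisomerase II poison, with 25 nM gilteritinib, an inhibitor of the FLT3 kinase, or with both drugs (Com). In Com, mitoxantrone was at 20 nM and gilteritinib at 20 nM, so the gilteritinib dose differed between Com and Gilteritinib. The drug called mitoxantrone in the labels is the liposomal form in the methods. Each condition had 3 libraries of this 1 line, 12 in all, numbered 1 to 3. The labels do not say whether the numbered libraries came from separate cultures, so the p-values measure the spread between these libraries, which may be technical.

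Depth recovered from the steps in the FPKM values was 31725013 to 41330654 fragments per library. Of the myeloid markers, LYZ was at 490.4 to 1333 FPKM and FLT3 at 131.7 to 170.7 FPKM. Low markers of the same list were MPO at 1.55 to 2.66 FPKM, ITGAM at 0.503 to 4.82 FPKM and CD14 at 0.264 FPKM or less. The summed FPKM was at most 0.122 for the T cell markers, 0.364 for the epithelial markers and 0.0857 for the fibroblast markers, whereas it reached 3.81 for the erythroid markers. Libraries with the same number deviated together in all 4 conditions, and replicate 1 stood apart from replicates 2 and 3. The replicate number alone passed limma's F test for 25 of the 47 genes, against 27.9% of all genes tested. What the number stands for is not given.

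Replication begins in G1 phase, when the origin recognition complex with CDC6 and CDT1 loads the MCM2-7 ring onto DNA, a step called licensing. In S phase the CDC7-DBF4 kinase and several firing factors turn the ring, with CDC45 and GINS, into the moving helicase. Polymerases, the PCNA clamp, its RFC loader, the RPA complex that coats exposed strands and the enzymes that join Okazaki fragments then copy the DNA. Proliferating cells transcribe many of these genes in a wave around the start of S phase, and E2F factors are known regulators of that wave.

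The 47 genes tested were expressed in every library. The highest mean FPKM over the 12 libraries was that of PCNA, the sliding clamp, at 255, followed by MCM4 at 191, MCM7 at 151 and MCM6 at 111. Of the genes tested, POLD4, the smallest subunit of polymerase delta, had the lowest mean, at 3.87 FPKM. The origin recognition genes lay lower than the ring they load, from 5.07 FPKM for ORC4 to 26.8 FPKM for ORC1.

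Mitoxantrone against DMSO asked what the topoisomerase poison did alone. Of the 47 genes, 46 had a lower mean in Mitoxantrone, with a median log2 difference of -0.22, whereas the median over all genes tested was 0.03. No gene passed limma's test at an adjusted p under 0.05, which 0.0% of all genes did. At an unadjusted p under 0.05 were 18 of the 47, all lower, against 2.94% of all genes that were lower at that threshold. With voom on the recovered fragments, none of the 47 had an adjusted p under 0.05. The Mitoxantrone libraries lay below all 3 DMSO libraries for 22 genes (5.9% of all genes), and 37 were lower at each replicate number (14.8% of all genes). The median difference was -0.22 at replicate 1, -0.24 at replicate 2 and -0.26 at replicate 3. In bulk RNA, a smaller share of cells in S phase and less RNA of these genes per cell cannot be told apart.

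With the replicate number as a block, 36 of the 47 were lower at an unadjusted p under 0.05 (6.46% of all genes), and the smallest adjusted p in limma was 0.0861, for MCM6 and MCM4. With a term for replicate 1 against the others, MCM4 and MCM6 passed, with limma adjusted p-values of 0.0482 and 0.0462 (0.0269% of all genes were lower in this way). Fits on replicates 2 and 3 alone, here and below, have 2 libraries per condition. Their p-values measure only the spread between those libraries, from which replicate 1 stood apart. In replicates 2 and 3 alone, 26 of the 47 fell at an adjusted p under 0.05 in limma, against 3.32% of all genes, and the median was -0.25. The same libraries with the block gave 25 (2.29% of all genes), and voom on all 12 libraries with the block gave 6 (0.383% of all genes).

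**Figure D1:**
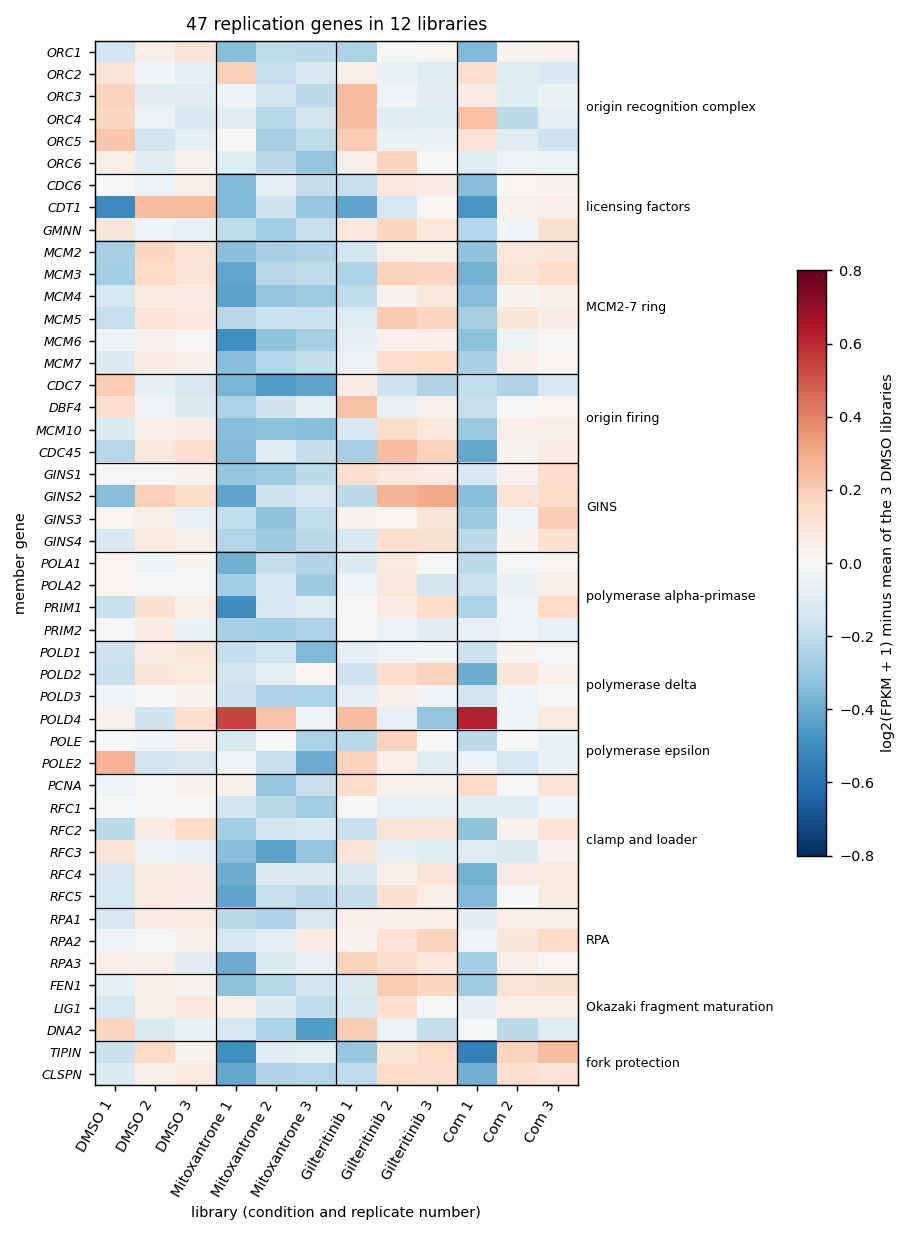
Each row is 1 of the 47 genes and each column 1 of the 12 libraries, and color is the log2(FPKM + 1) minus the mean of the 3 DMSO libraries. The 3 Mitoxantrone columns and Com replicate 1 are blue for most genes, and DMSO replicate 1 is blue for the MCM2-7 ring.

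The origin recognition complex, which marks origins, had a median log2 difference of -0.15 between Mitoxantrone and DMSO, from -0.25 for ORC1 to -0.04 for ORC2. ORC6, the smallest subunit, was at 27.5, 24.8 and 27.2 FPKM in the DMSO libraries and at 24.7, 22.8 and 21.1 in the Mitoxantrone libraries. Its highest Mitoxantrone library lay just under its lowest DMSO library, and the log2 difference was -0.21 (SE 0.08). ORC2, a core subunit, had the least change of the 47 genes, with 14.3, 13.1 and 12.5 FPKM in DMSO and 15.3, 11.5 and 12.1 FPKM in Mitoxantrone. The groups overlapped, and the direction turned to 0.01 without DMSO replicate 1, 0.03 without Mitoxantrone replicate 2 and 0.0018 without Mitoxantrone replicate 3.

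Among the licensing factors, GMNN, the inhibitor that keeps CDT1 from loading rings again in S phase, had the smallest p. It was at 62.3, 56.6 and 55.6 FPKM in DMSO and at 50.4, 47.9 and 50.9 FPKM in Mitoxantrone, with no overlap and a log2 difference of -0.22 (SE 0.09). CDT1, the loader itself, was split by replicate number, at 51.3, 87.7 and 87.8 FPKM in DMSO and 57.2, 65.5 and 59.3 FPKM in Mitoxantrone. It was thus higher in Mitoxantrone at replicate 1 and lower at replicates 2 and 3, and it passed in replicates 2 and 3 alone at a log2 difference of -0.49 (limma adjusted p = 0.0122). CDC6, the other loader, differed by -0.21.

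The MCM2-7 ring, the motor of the helicase, was lower for all 6 subunits at each replicate number. The log2 differences ran from -0.36 to -0.19, with a median of -0.28. MCM6 was at 116, 122 and 120 FPKM in DMSO (119 ± 3.16, mean ± SD, n = 3) and at 84.8, 95.3 and 99.1 FPKM in Mitoxantrone (93.1 ± 7.40). Every Mitoxantrone library lay below every DMSO library, with a log2 difference of -0.36 (SE 0.09, limma adjusted p = 0.474). For MCM2, MCM3 and MCM5, DMSO replicate 1 lay far below DMSO replicates 2 and 3 and within the range of the Mitoxantrone libraries, for example 58.5 against 79.1 and 75.7 FPKM for MCM2. In replicates 2 and 3 alone all 6 fell, MCM2 by the most of the 6, with a log2 difference of -0.39 (limma adjusted p = 0.0025).

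Of the firing factors, CDC7, the kinase subunit that activates the ring, had the lowest log2 difference among the 47 genes. Its FPKM was 27.4, 22.3 and 21.5 in DMSO and 18.1, 17.0 and 17.3 in Mitoxantrone, with no overlap. The log2 difference was -0.41 (SE 0.10, limma adjusted p = 0.474). DBF4, its regulatory partner, differed by -0.16 with overlapping libraries. MCM10, which helps the helicase start, was at 12.7 to 14.4 FPKM in DMSO and 10.7 to 10.9 FPKM in Mitoxantrone, a log2 difference of -0.33, and CDC45, part of the moving helicase, differed by -0.21.

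The 4 GINS genes, whose products complete the helicase, differed by similar amounts, from -0.27 to -0.24. GINS1 was at 21.6, 21.5 and 22.2 FPKM in DMSO and at 17.3, 17.7 and 18.6 FPKM in Mitoxantrone. The groups were well apart, with a log2 difference of -0.27 (SE 0.07, limma adjusted p = 0.477). GINS2 had the smallest p of the 47 genes in the F test on the replicate number, with replicate 2 higher than replicate 1 by 0.43 on the log2 scale over the 4 conditions (limma adjusted p = 0.00134).

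Polymerase alpha-primase, which lays the primers, was lower for all 4 subunits, by -0.27 to -0.24 on the log2 scale. PRIM2, the large primase subunit, was at 21.9, 23.01 and 21.2 FPKM in DMSO and at 18.2, 18.1 and 18.4 FPKM in Mitoxantrone. The Mitoxantrone libraries were nearly equal and all below DMSO, with a log2 difference of -0.26 (SE 0.06, limma adjusted p = 0.397). POLA2 shares 35.1% of its exon length with an overlapping gene on the same strand, so its level is less certain. The same holds for PRIM1 (21.6%) and TIPIN (21%). MCM2 and GINS4 share 23.6% each, where the largest overlapping gene is on the opposite strand.

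The subunits of polymerase delta, the lagging strand enzyme, did not move alike. POLD3, an accessory subunit, was at 19.9, 20.2 and 20.5 FPKM in DMSO and 17.9, 17.0 and 16.8 FPKM in Mitoxantrone, a log2 difference of -0.22 (SE 0.07) with no overlap. POLD4 was the only 1 of the 47 genes with a higher mean in Mitoxantrone, at 3.54, 2.98 and 3.86 FPKM in DMSO and 5.48, 4.20 and 3.36 FPKM in Mitoxantrone. Its libraries overlapped, its log2 difference was 0.25 (SE 0.21), and 21.3% of its exon length is shared with another gene. POLD1, the catalytic subunit, differed by -0.23 and POLD2 by -0.07. Polymerase epsilon, the leading strand enzyme, was lower by a median of -0.16. POLE2, its second subunit, overlapped between the groups, with 32.1, 23.7 and 24.0 FPKM in DMSO and 25.8, 23.1 and 19.8 FPKM in Mitoxantrone.

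RFC3, a subunit of the loader that opens the PCNA clamp, had the smallest p of the 47 genes. Its FPKM was 48.6, 43.8 and 42.9 in DMSO and 35.5, 33.2 and 35.9 in Mitoxantrone, so that the groups were separate, with a log2 difference of -0.36 (SE 0.08, limma adjusted p = 0.397). The other loader subunits differed by -0.27 to -0.18. PCNA was higher in Mitoxantrone at replicate 1 and lower at the other numbers, with 248, 256 and 260 FPKM in DMSO and 262, 206 and 223 FPKM in Mitoxantrone.

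Of the RPA genes, RPA1, the largest subunit, was at 37.5, 43.0 and 43.4 FPKM in DMSO and 35.4, 34.5 and 37.7 FPKM in Mitoxantrone. The groups overlapped by 1 library on each side, and the log2 difference was -0.19 (SE 0.07). RPA2 differed by -0.05 and RPA3 by -0.19, both with overlapping libraries and both higher in Mitoxantrone at replicate 3. In replicates 2 and 3 alone the median of the RPA genes was -0.06. Among the enzymes of Okazaki fragment maturation, DNA2, a nuclease that trims long flaps, was at 19.9, 16.1 and 16.9 FPKM in DMSO and 15.9, 14.6 and 12.6 FPKM in Mitoxantrone, without overlap, a log2 difference of -0.28 (SE 0.12). FEN1, the flap endonuclease, differed by -0.23 and LIG1, the ligase that seals the fragments, by -0.09. CLSPN, which links the fork to the checkpoint kinase, was at 14.4, 16.1 and 16.5 FPKM in DMSO and 11.5, 13.1 and 13.2 FPKM in Mitoxantrone. Its groups were separate, with a log2 difference of -0.30 (SE 0.14), and its fork partner TIPIN differed by -0.22.

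Com against Mitoxantrone asked what gilteritinib changed when mitoxantrone was present. Of the 47 genes, 45 had a higher mean in Com, with a median log2 difference of 0.18, against -0.04 over all genes tested. None passed limma at an adjusted p under 0.05 (0.0% of all genes), and 10 were higher at an unadjusted p under 0.05 (1.41% of all genes). With voom none had an adjusted p under 0.05. The 3 Com libraries lay above the 3 Mitoxantrone libraries for 9 genes (3.22% of all genes), which were CDC7, MCM10, GINS1, GINS4, PRIM2, POLD3, RFC1, RFC3 and RPA1. At each replicate number 32 were higher (12.1% of all genes).

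The difference depended on the replicate number. Its median was 0.04 at replicate 1, 0.19 at replicate 2 and 0.26 at replicate 3. Com replicate 1 had a summed FPKM over the 48 genes of 1873.9, near the 1801.2 to 1859 of the Mitoxantrone libraries. Com replicates 2 and 3 reached 2180 and 2238.1. Replicate 1 had the lowest sum in every condition, with 2022.5 against 2231 and 2227.5 in DMSO and 2067.7 against 2263.9 and 2256.2 in Gilteritinib. Without Com replicate 1 the median difference between Com and Mitoxantrone was 0.25. With the block, 26 genes were higher at an unadjusted p under 0.05 (3.6% of all genes). In replicates 2 and 3 alone, 24 of the 47 rose at an adjusted p under 0.05 in limma, against 2.62% of all genes, and with the block as well 18 did (1.66% of all genes). Among the 24 were all 6 genes of the MCM2-7 ring, from 0.24 for MCM7 to 0.35 for MCM2, and all 6 of the clamp and its loader.

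GINS1 had the smallest p of the 47 genes in this comparison. In Com it was at 19.9, 22.3 and 24.1 FPKM, each above the 17.3 to 18.6 FPKM of Mitoxantrone, a log2 difference of 0.29 (SE 0.07, limma adjusted p = 0.821). MCM6 was at 94.8, 116 and 120 FPKM in Com, so that only replicate 1 lay within the Mitoxantrone range. RFC3 was at 41.8, 41.6 and 46.2 FPKM in Com, above all 3 Mitoxantrone libraries, and PRIM2 was at 21.0, 21.6 and 21.0 FPKM. POLD2 and POLD4 had slightly lower means in Com, both by -0.02, and ORC2 differed by 0.01, with directions that turned under other settings.

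**Figure D2:**
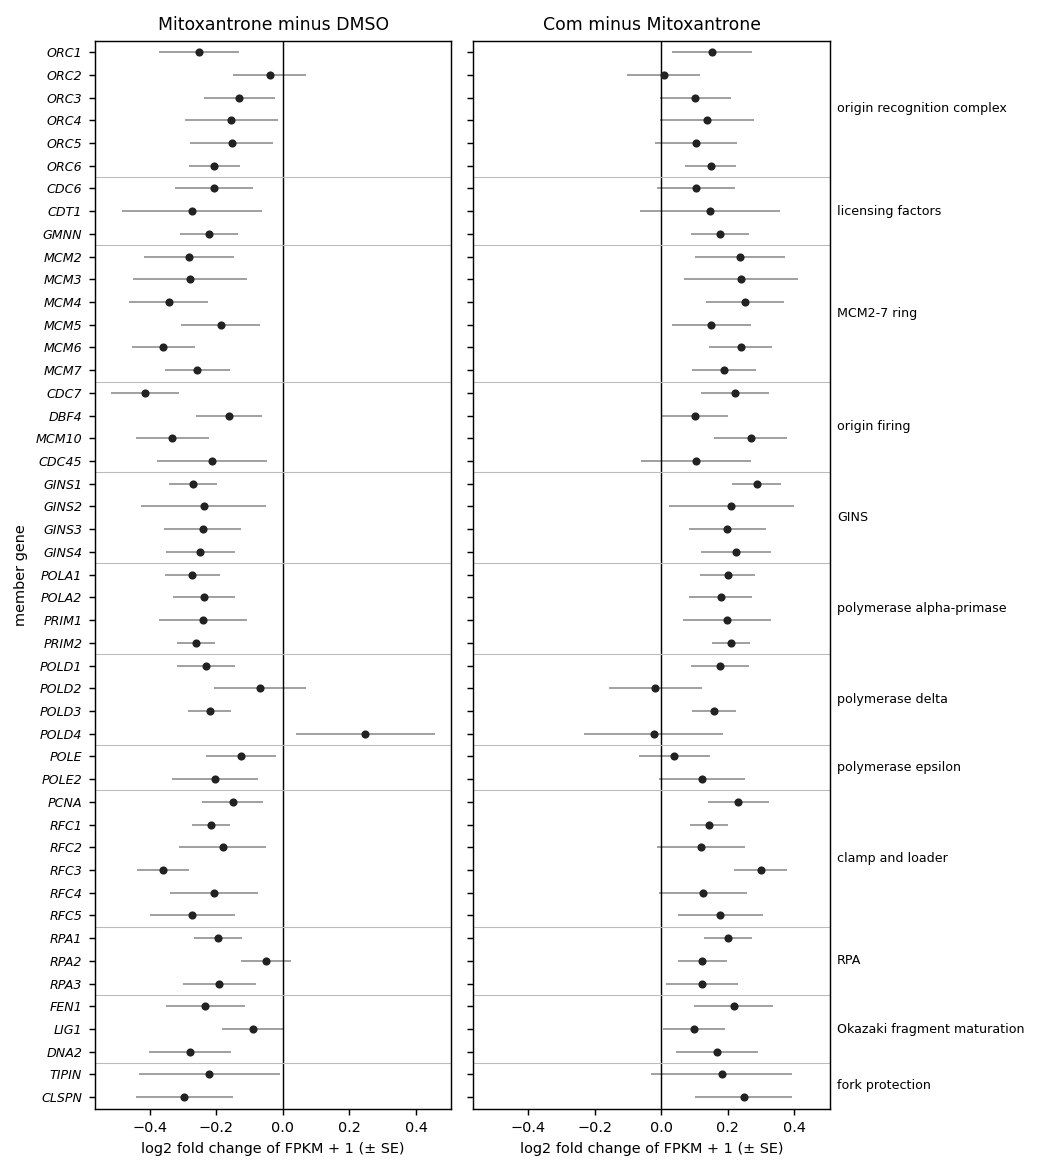
Log2 fold change of FPKM + 1 with its SE for each of the 47 genes, grouped by role, in Mitoxantrone minus DMSO (left) and Com minus Mitoxantrone (right), on 1 shared horizontal scale. All points but POLD4 are left of 0 in the left panel, and all but POLD2 and POLD4 are right of 0 in the right panel. The panels share the Mitoxantrone libraries.

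Gilteritinib alone gave small differences in both directions. Against DMSO, 27 were higher and 20 lower, with a median log2 difference of 0.02 (-0.03 over all genes tested). In limma none of the 47 passed at an adjusted p under 0.05 (0.0% of all genes) or at an unadjusted p under 0.05, at which 1.3% of all genes were lower and 0.565% higher, and with voom none did either. The smallest p was that of RPA2, the middle RPA subunit, at 48.5, 49.0 and 50.9 FPKM in DMSO and 50.2, 53.8 and 56.2 FPKM in Gilteritinib. The libraries overlapped, and the log2 difference was 0.11 with a 95% interval of -0.06 to 0.27. GINS1 and RPA3 were the only 2 genes with all Gilteritinib libraries above all DMSO libraries (2.18% of all genes). With the block, RPA2 alone of the 47 was higher at an unadjusted p under 0.05 (1.26% of all genes). At each replicate number 9 were higher, namely ORC3, MCM3, MCM5, MCM7, GINS1, GINS2, POLD2, RPA2 and RPA3 (9.51% of all genes), and 4 were lower, ORC1, ORC2, CDC7 and RFC3 (16.6% of all genes).

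Com against DMSO gave small differences. Of the 47 genes, 41 were lower, with a median of -0.06 (-0.01 over all genes tested), and none passed limma at an adjusted p under 0.05, which 0.00538% of all genes did, or at an unadjusted p under 0.05, at which 0.84% of all genes were lower and 0.829% higher. With voom none passed either threshold. CDC7 had the smallest p and was 1 of 2 genes, with RFC1, whose Com libraries lay below all DMSO libraries (3.16% of all genes were lower without overlap). It was at 20.5, 19.8 and 21.4 FPKM in Com against 21.5 to 27.4 FPKM in DMSO, a log2 difference of -0.19 with a 95% interval of -0.42 to 0.03. With the block, CDC7 alone of the 47 was lower at an unadjusted p under 0.05 (2.32% of all genes). By number the median was -0.15, -0.03 and -0.01, with 38, 31 and 26 of the 47 lower. Without Com replicate 1, with all 3 DMSO libraries kept, it turned to 0.03, and in replicates 2 and 3 alone it was -0.02.

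Com and Gilteritinib differ in mitoxantrone and in the gilteritinib dose. In Com 42 of the 47 genes were lower, with a median of -0.08 (0.02 over all genes tested), and none passed limma at an adjusted p under 0.05 (0.0% of all genes) or at an unadjusted p under 0.05, at which 0.829% of all genes were lower and 0.802% higher. With voom none passed either threshold. RPA3, the smallest RPA subunit, had the smallest p, with 22.96, 22.2 and 21.4 FPKM in Gilteritinib and 16.4, 20.9 and 20.3 FPKM in Com. These groups were separate, as were those of ORC6 (2.33% of all genes were lower without overlap), and the log2 difference of RPA3 was -0.20 (SE 0.11). With the block, MCM7, GINS2 and CDC45 were lower at an unadjusted p under 0.05 (1.91% of all genes) in limma, with log2 differences of -0.15, -0.15 and -0.16. By number the median was -0.15, -0.07 and 0.00. It was 0.00 without Com replicate 1 and -0.04 in replicates 2 and 3 alone.

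Gilteritinib against Mitoxantrone, 2 single drugs, had the most genes without overlap of the 6 comparisons. It shares the Mitoxantrone libraries with the comparisons of Mitoxantrone to DMSO and to Com, so its counts are not separate from theirs. Of the 47 genes, 46 were higher in Gilteritinib, with a median log2 difference of 0.25 (-0.06 over all genes tested). None passed limma at an adjusted p under 0.05 (0.0% of all genes), 23 were higher at an unadjusted p under 0.05 (2.96% of all genes), and 24 had all Gilteritinib libraries above all Mitoxantrone libraries (5.25% of all genes). GINS1 again had the smallest p, with 23.8, 23.2 and 22.8 FPKM in Gilteritinib and a log2 difference of 0.36 (SE 0.07, limma adjusted p = 0.236). With the block, 39 were higher at an unadjusted p under 0.05 (5.45% of all genes). With a term for replicate 1, 10 rose at an adjusted p under 0.05 in limma, among them MCM3, MCM4, MCM6 and MCM7 (0.393% of all genes), and in replicates 2 and 3 alone 25 did (2.65% of all genes), or 21 with the block (1.6% of all genes). With voom none passed without the block and 18 rose with it (1.07% of all genes).

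The interaction, Com minus Gilteritinib less Mitoxantrone minus DMSO, compared the mitoxantrone difference with and without gilteritinib. The gilteritinib dose was lower in Com than in Gilteritinib, so the interaction cannot separate this dose difference from a changed mitoxantrone difference. The interaction uses the libraries of Mitoxantrone against DMSO again, so its direction is not separate from that difference. It was above 0 for 45 of the 47 genes, with a median of 0.15 (-0.01 over all genes tested), and none passed limma at an adjusted p under 0.05 (0.0% of all genes). At an unadjusted p under 0.05 were 4, CDC7, PRIM2, RFC1 and RFC3, all above 0 (1.43% of all genes). With the block there were 10 (3.56% of all genes). PRIM2 had the smallest p, with an interaction of 0.26 (SE 0.08). In replicates 2 and 3 alone 7 passed in limma, all above 0 (1.7% of all genes), namely ORC1, CDT1, MCM2, MCM3, MCM4, MCM6 and MCM10, and with the block 2 did (1.22% of all genes). The median by number was 0.04, 0.18 and 0.26.

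The genes divided by replicate number. Replicate 1 was the lowest library in all 4 conditions for 19 of the 47 genes (10.6% of all genes), including all 6 of the MCM2-7 ring, ORC1, CDT1, CDC45, GINS2, FEN1, CLSPN and 3 of the RFC genes. It was the highest in all 4 conditions for 6, which were ORC2, ORC3, ORC4, ORC5, POLE2 and DNA2 (22.0% of all genes). ORC1 thus went against the other large subunits of its complex, at 25.8 FPKM in DMSO replicate 1 against 29.9 and 31.0 in the others, where ORC5 was at 25.1 against 19.1 and 20.3.

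Genes of the same process outside the 48 differed by similar amounts. Of 33 other replication genes tested, 30 were lower in Mitoxantrone than in DMSO, with a median of -0.21, and 14 of these were lower at an unadjusted p under 0.05 (2.94% of all genes). WDHD1, which ties the helicase to polymerase alpha, had the smallest p, with a log2 difference of -0.32. All 25 genes of G2 phase and mitosis were also lower, with a median of -0.23 and 12 at an unadjusted p under 0.05 (2.94% of all genes), KIF11, a spindle motor, by -0.32. In Com minus Mitoxantrone the medians were 0.13 and 0.15. In Com minus Gilteritinib all 25 genes of G2 phase and mitosis were lower, with a median of -0.19, and 4 had an unadjusted p under 0.05 (0.829% of all genes), whereas the 47 genes had a median of -0.08 and 0.

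The promoters of these genes were searched for the 8-letter words TTTCCCGC, TTTGGCGC, TTTCGCGC and TTTGCCGC, forms of the E2F motif, on both strands, in the 300 bases from 250 before to 50 after each RefSeq start (GRCh38.p14). A window was on file for 41 of the 48 genes. Of these 41, 21 held a word (51.2%), against 3.99% of 27305 genes with a window and 6.81% of the 9381 that were also tested. CCAAT, the box bound by NF-Y, was in 61% of the 41, against 39.7% of all genes with a window and 43.2% of those also tested. TTTGAA, the core of the CHR element of many mitotic genes, was in 1 of the 41, DBF4, against 18.2% and 14%. Genes with and without an E2F word had medians of -0.24 and -0.21 in Mitoxantrone minus DMSO. A match describes letters and is not a bound site.

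The 120 bases just before a RefSeq start are shown for CDC7, GMNN and MCM6, members with the smallest p of their role that hold a word there, with the matches in capitals. CDC7 and GMNN each have 2 starts on file. For both, the stretch shown precedes the downstream start, and the one before the upstream start, at chr1:91500731-91500850 and chr6:24774817-24774936, holds 0 words. The stretches of CDC7 and GMNN thus lie inside their annotated genes, which start at 91500893 and 24774931. The word of RFC3 lies in an annotated first exon and is not shown. CDC7 is read on the plus strand at chr1:91500992-91501111, GMNN on the plus strand at chr6:24775293-24775412 and MCM6 on the minus strand at chr2:135876444-135876563.
CDC7: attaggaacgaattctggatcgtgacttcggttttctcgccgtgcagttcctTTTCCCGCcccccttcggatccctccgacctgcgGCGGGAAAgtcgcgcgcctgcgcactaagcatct
GMNN: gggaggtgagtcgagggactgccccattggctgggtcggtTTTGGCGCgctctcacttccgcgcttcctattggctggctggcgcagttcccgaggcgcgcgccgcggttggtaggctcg
MCM6: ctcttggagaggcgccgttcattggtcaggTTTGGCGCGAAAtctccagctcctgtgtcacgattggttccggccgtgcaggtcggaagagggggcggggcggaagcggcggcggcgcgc
The first word of CDC7 is TTTCCCGC and the second is the same word on the other strand. GMNN holds TTTGGCGC. In MCM6 the capitals are TTTGGCGC and, on the other strand, TTTCGCGC, which overlap.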

How the data were processed

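RNA from MV4-11 cells was amplified by Geo-seq and sequenced as 12 libraries, per the labels. The authors deposited 1 table of FPKM with 4 decimals, used as it is. Their processing notes list Bowtie 0.12.9, Cufflinks 2.1.1, HTSeq, DESeq2 and the mouse build mm10, without roles, although the identifiers are human, and strand handling is not given in the sources used here. Reads of overlapping genes therefore cannot be told apart. All sample columns were used.

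The members and gene lists were chosen with earlier results of these data known. Values were tested as log2(FPKM + 1) with limma 3.58.1 in R 4.3.3. The fit held all 12 libraries, had a mean per condition and used the mean-variance trend. Benjamini-Hochberg adjustment was over the 18574 genes that reached an FPKM of 1 in 3 or more libraries. Differences understate the change of low genes. The limma step was tested on simulated data with independent noise in each library. That simulation held no difference between replicate numbers, so it does not cover the one in these data.

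Whole fragments were recovered with a tolerance of 0.02 beside rounding. A length that made all 12 values whole was found for 14671 of the 14691 genes at FPKM 1 or more throughout, and for all 48 members. In 10 of 192 member means the SD was below the counting error. Deviations from the condition means correlated at 0.165 to 0.657 in all 18 same-numbered pairs. Correlations between libraries of different numbers were not computed. These values therefore cannot tell a pairing of the libraries from replicate 1 standing apart. The fit with the number as a block was an alternative.

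Per-library values are given for the member with the smallest p of each of 12 roles in Mitoxantrone against DMSO and of each other comparison, and for the member with the least change. CDT1, PCNA, POLD4 and other members shown in part were added after their values were seen. Positions come from GENCODE release 29 and promoter sequences from RefSeq (GRCh38.p14). A marker list checked alongside the others is not reported here.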

Additional observations from a re-analysis of the deposited data

How the results depend on the processing

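Counts of members past an adjusted p under 0.05 were the same as in the main analysis in 169 of 181 alternatives and higher in 12, all printed here or in the report. The replicate block alone left every count at 0, and with it the smallest adjusted p in limma was 0.0861 in Mitoxantrone minus DMSO and 0.0554 in Gilteritinib minus Mitoxantrone. For Mitoxantrone minus DMSO the count was 2 with replicate 1 as a batch term, 26 in replicates 2 and 3 only, 25 there with the replicate block, and 6 with voom on recovered fragments and the replicate block. Com minus Mitoxantrone had 24 in replicates 2 and 3 only and 18 there with the block. Gilteritinib minus Mitoxantrone had 10 with the batch term, 25 in replicates 2 and 3 only, 21 there with the block and 18 with voom and the block. The interaction had 7 in replicates 2 and 3 only and 2 there with the block. These alternatives use fewer libraries or take up the replicate difference by construction. The block changed no other call at an adjusted p under 0.05. It raised the counts at an unadjusted p under 0.05 in all 6 comparisons and the interaction, from 0 to 1 in Gilteritinib minus DMSO and Com minus DMSO and from 0 to 3 in Com minus Gilteritinib, with the others in the report.

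Of the medians over members, 167 of 181 moved by no more than the SD of the 3 medians by replicate number. That SD was 0.02 in Mitoxantrone minus DMSO but 0.11 in Com minus Mitoxantrone and in the interaction. The allowance was thus widest where the replicate numbers differed most. Median-ratio scaling gave -0.25 in Mitoxantrone minus DMSO, 0.0546 in Gilteritinib minus DMSO and 0.32 in Gilteritinib minus Mitoxantrone, and replicates 2 and 3 only, with or without the block, gave -0.25 in Mitoxantrone minus DMSO. With 1 library left out at a time the medians ranged from -0.27 to -0.21 in Mitoxantrone minus DMSO, -0.019 to 0.0581 in Gilteritinib minus DMSO, -0.11 to 0.0342 in Com minus DMSO, -0.14 to 0.00 in Com minus Gilteritinib, 0.12 to 0.25 in Com minus Mitoxantrone, 0.22 to 0.28 in Gilteritinib minus Mitoxantrone and 0.10 to 0.24 in the interaction. The direction turned without DMSO replicate 1 or Gilteritinib replicate 2 in Gilteritinib minus DMSO (-0.019 and -0.0184), and without Com replicate 1 in Com minus DMSO (0.0342) and Com minus Gilteritinib (0.0036).

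Single members turned direction in 18 of 2571 values. ORC2 in Mitoxantrone minus DMSO ranged from -0.155 to 0.0336 with 1 library left out, and was 0.0106 without DMSO replicate 1, 0.0336 without Mitoxantrone replicate 2 and 0.0018 without Mitoxantrone replicate 3. In Com minus Mitoxantrone, ORC2 was -0.0666 without Mitoxantrone replicate 2, -0.0348 without Mitoxantrone replicate 3 and -0.0722 without Com replicate 1. POLD2 was 0.018 with median-ratio scaling, 0.10 in replicates 2 and 3 only with or without the block, 0.0262 without Mitoxantrone replicate 3 and 0.13 without Com replicate 1. POLD4 was 0.0068 with median-ratio scaling, 0.0597 with quantile normalization, 0.13 without Mitoxantrone replicate 1, 0.10 without Com replicate 2 and 0.0544 without Com replicate 3, and -0.222 without Com replicate 1, its lowest value. POLE was -0.0259 without Mitoxantrone replicate 3 and -0.0062 without Com replicate 2. The cause was not tested.

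The block within replicates 2 and 3, voom with the block, and the F test on replicate number were chosen after seeing the data. With 3 libraries per condition, an adjusted p over 0.05 does not show that a gene was unchanged.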

Other observations

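POLD4 followed another pattern than the other members. It was at 5.48 FPKM in Mitoxantrone replicate 1 and 5.85 FPKM in Com replicate 1, against 2.58 to 4.30 FPKM in the other 10 libraries. RNASEH2A, below the filter, had 0.763 ± 0.0513 FPKM in DMSO, 0.620 ± 0.222 FPKM in Mitoxantrone, 0.530 ± 0.106 FPKM in Gilteritinib and 0.642 ± 0.0619 FPKM in Com (SD, n = 3), from few fragments per library, and 30.8% of its exon length is shared with an overlapping gene.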
